A study of Homo sapiens with 45 samples.

Results

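The genes described here are 7 genes that mark the fast transmitters glutamate, GABA and glycine: SLC17A6, SLC17A7, SLC17A8, GAD1, GAD2, SLC32A1 and SLC6A5. They were chosen by name, as the genes that load glutamate into synaptic vesicles, make GABA, load GABA and glycine into vesicles, and take up glycine, and all 7 were found by GENCODE symbol among the 58233 genes of the table. The series followed human H9 embryonic stem cells, an established line, through a motor neuron differentiation by RNA sequencing of polyadenylated RNA. It holds 45 libraries, 3 for each of 15 days (day 0 to day 15, with no day 3). The design of the study also names a mouse course, which was not analysed here.

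All libraries share the same history before day 0: N2B27 medium with 3 µM CHIR99021 (a GSK3 inhibitor that activates Wnt signalling), 5 ng/ml bFGF, 10 µM SB431542 and 2 µM DMH1 (inhibitors of Nodal/activin and BMP signalling) and, at first, 10 µM of the ROCK inhibitor Y-27632. This brings the cells to neuromesodermal progenitors, the bipotent cells of the tail bud. Day 0, labelled as control, was taken at that stage. On day 0 the cells were dissociated and replated in 100 nM retinoic acid (RA) and 500 nM SAG (a Smoothened agonist that activates Hedgehog signalling), again with Y-27632 at first, and the medium was replaced every other day. Days 1 to 15 therefore differ from day 0 by the replating as well as by RA and SAG, and time and treatment cannot be told apart. The 3 libraries of a day are called biological replicates of 1 cell line with nothing further said of separate cultures, so p-values measure the spread between these samples.

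A neuron releases glutamate only if a vesicular glutamate transporter fills its vesicles: VGLUT1 (SLC17A7), VGLUT2 (SLC17A6) or VGLUT3 (SLC17A8). GABA is made from glutamate by the glutamate decarboxylases GAD67 (GAD1) and GAD65 (GAD2), GABA and glycine share the vesicular transporter VIAAT (SLC32A1), and glycinergic neurons refill their terminals through the plasma membrane transporter GLYT2 (SLC6A5). Spinal motor neurons use acetylcholine, while the interneurons born beside them in the ventral spinal cord use glutamate, GABA or glycine, and VGLUT2 is the main glutamate transporter of the spinal cord.

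The upstream sequence of 3 genes is shown because they were highest on different days: SLC17A8, highest on the last day, GAD2, highest on days 4 and 5, and SLC32A1, highest on days 0 and 1. They are from RefSeq (GRCh38.p14), in which all 7 genes matched a promoter entry, and hold the bases before the transcription start that lie in no annotated exon of the gene, on the gene's own strand, 5′ to 3′. SLC17A8 is read from chr12:100356824-100357073, GAD2 from chr10:26216122-26216306 and SLC32A1 from chr20:38724236-38724461, all on the plus strand. Capitals mark matches, on either strand, to CANNTG, the E-box that bHLH factors bind and of which CAGCTG is one form, and to CCAAT.
SLC17A8 promoter: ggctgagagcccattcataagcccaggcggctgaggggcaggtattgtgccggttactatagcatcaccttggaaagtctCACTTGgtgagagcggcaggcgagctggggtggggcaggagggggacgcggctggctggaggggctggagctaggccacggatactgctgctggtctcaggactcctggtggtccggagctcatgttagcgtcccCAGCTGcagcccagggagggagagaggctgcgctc
GAD2 promoter: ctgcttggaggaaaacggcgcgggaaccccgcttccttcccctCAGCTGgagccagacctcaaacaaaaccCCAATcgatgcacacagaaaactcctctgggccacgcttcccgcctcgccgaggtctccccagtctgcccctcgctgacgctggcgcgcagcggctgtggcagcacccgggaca
SLC32A1 promoter: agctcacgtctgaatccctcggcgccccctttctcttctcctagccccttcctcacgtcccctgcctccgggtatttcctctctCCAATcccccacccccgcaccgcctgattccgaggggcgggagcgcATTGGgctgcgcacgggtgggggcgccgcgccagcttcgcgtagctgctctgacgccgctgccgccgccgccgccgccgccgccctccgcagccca
The 250 bases before the SLC17A8 start held 2 matches to CANNTG, of which 1 read CAGCTG, and none to CCAAT. The 185 bases of GAD2 held 1 CAGCTG and 1 CCAAT. The 226 bases of SLC32A1 held no CANNTG and 2 CCAAT. Among 35116 RefSeq promoters of 250 bases, 61.8% held CANNTG, 14.0% CAGCTG and 32.0% CCAAT, so the first and the last are common words. CpG pairs numbered 10 before SLC17A8, 24 before GAD2 and 32 before SLC32A1 in 250 bases, against a median of 11 over all promoters. TAATTA, a homeodomain core, was searched as well and occurs in 4.35% of promoters. It was in none of the 250-base windows of the 7 genes. The windows of GAD1 and SLC17A6 lie wholly in annotated exons and are not shown. A match is a string of letters and no measured binding.

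The genes were read at low levels. Library totals ran from 22835854 to 39066286 counts, so 1 count was worth 0.0244 to 0.0452 CPM (counts per 1e6, scaled with TMM factors), and 19436 genes passed the filter on low counts. All 7 genes passed it, each through the days on which it is high. Of the 7, 4 reached a day mean of 1 CPM and 1, GAD1, reached 10 CPM. Of all genes tested, 16.3% never reached a day mean of 1 CPM. Of the 315 values (7 genes in 45 libraries), 25 were 0. In the labelled cell type, neural progenitor cells, the 6 progenitor genes (such as SOX1 and PAX6) summed to 737 to 902 CPM per library on day 0, 3820 to 4130 on day 1 and 1440 to 1700 on day 15. The 14 neuronal genes (such as STMN2 and DCX) summed to 951 to 1010 CPM on day 0 and 747 to 748 on day 1. They summed to 7240 to 7940 CPM on day 8 and 5650 to 6770 on day 15. The later libraries thus hold both classes of RNA and match the label only in part. In such bulk RNA, fewer cells of a type and less RNA per cell cannot be told apart.

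Each gene differed among the 15 days by edgeR's quasi-likelihood F test, 7 of 7 at a Benjamini-Hochberg adjusted p of at most 1.6e-08, where 91.5% of all genes tested did. The 7 genes did not follow 1 course. GAD1 and SLC17A7 were highest on day 0, SLC32A1 on days 0 and 1, GAD2 on days 4 and 5, SLC17A6 and SLC6A5 on day 8, and SLC17A8 on day 15. The deposited TPM values gave the same highest day for all 7.

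**Figure D1:**
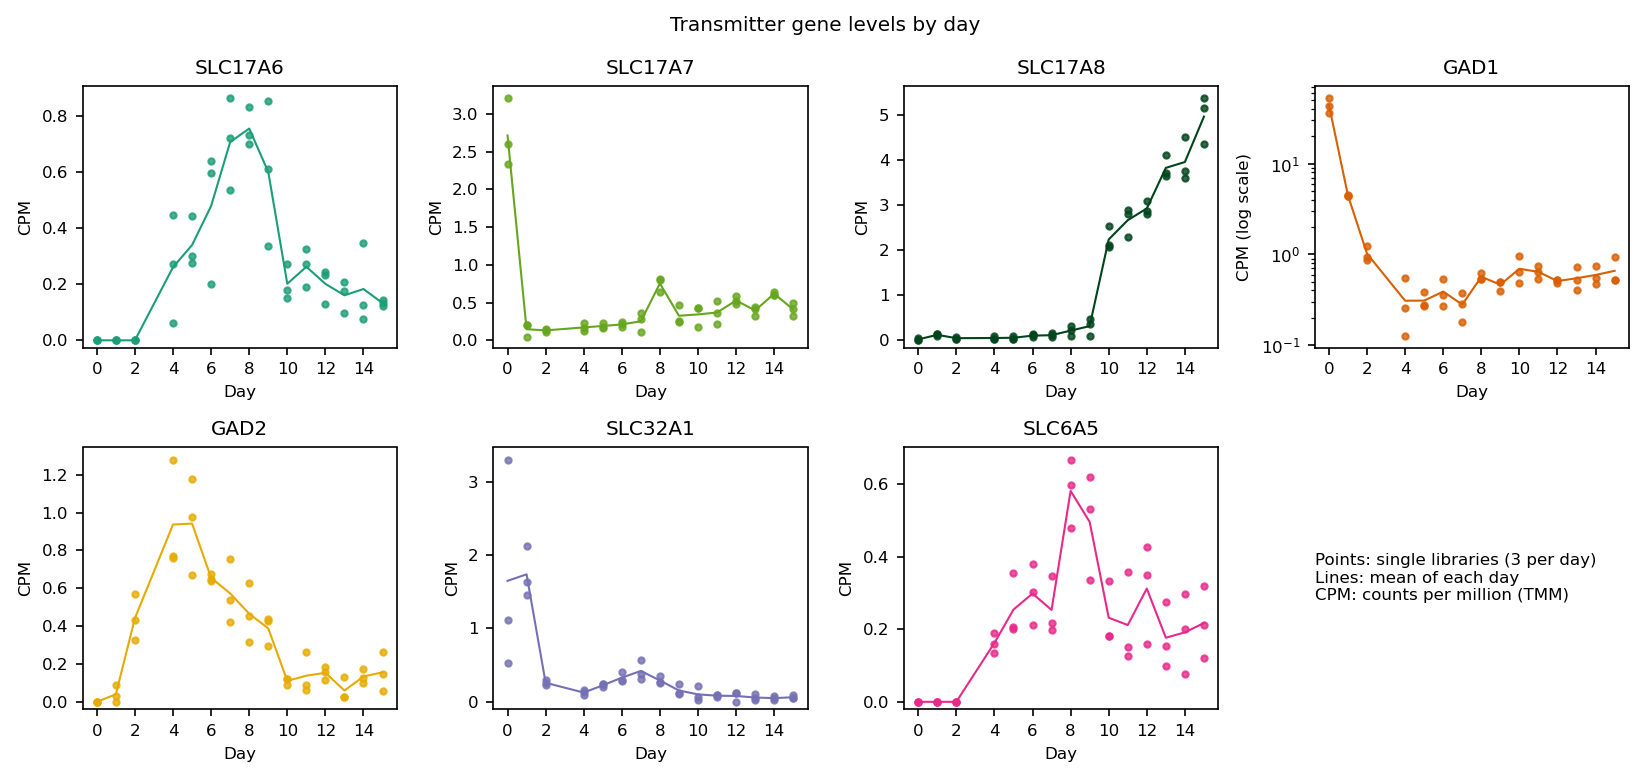
Level of each of the 7 genes (CPM, vertical axes, each with its own range and a log scale for GAD1) against day (horizontal axes). Points are single libraries, 3 per day, and lines join day means. GAD1 drops from 44.5 CPM on day 0 to 4.45 on day 1, SLC17A8 steps up between day 9 (0.314) and day 10 (2.23), and SLC17A6 and SLC6A5 peak on day 8.

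Among the vesicular glutamate transporters, SLC17A6 (VGLUT2; chr11:22338097-22379503, plus strand, GRCh38) had no count on days 0, 1 and 2. A sum of 0 over 3 libraries allows up to 0.0306 CPM on day 0, 0.036 on day 1 and 0.0357 on day 2 (3 counts, counting error only). It was counted in every library from day 4 on. Its counts were 2, 6 and 14 on day 4, 28, 26 and 22 on day 8, and 5, 5 and 5 on day 15. In CPM these were 0.0635, 0.271 and 0.449 on day 4, then 0.835, 0.734 and 0.7 on day 8, then 0.145, 0.132 and 0.122 on day 15. Of these 3 days, day 4 was spread the most, and its libraries did not overlap those of day 8. The libraries of day 15 lay below all of day 8. Days 7, 8 and 9, with means of 0.708 ± 0.16, 0.756 ± 0.07 and 0.602 ± 0.26 CPM (SD, n = 3), overlapped. Between day 9 and day 10 the libraries separated again, from 0.855, 0.336 and 0.613 to 0.181, 0.274 and 0.151 CPM. From day 10 to day 15 the 18 libraries held 3 to 14 counts, with a median of 6. The antisense gene AC104009.1, which overlaps its exons, had at most 4 counts on any day.

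SLC17A7 (VGLUT1; chr19:49429401-49442360, minus strand) had its highest values before RA and SAG, with 77, 105 and 84 counts on day 0, or 2.33, 3.21 and 2.6 CPM. On day 1 it had 6, 6 and 1 counts (0.199, 0.199 and 0.0433 CPM), so the 2 days did not overlap. It stayed at day means of 0.131 to 0.252 CPM through day 7. Day 8 stood above both its neighbours: 0.283, 0.113 and 0.36 CPM on day 7, 0.805, 0.818 and 0.637 on day 8, and 0.472, 0.259 and 0.245 on day 9. From day 10 on, day means ran between 0.343 and 0.618 CPM.

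SLC17A8 (VGLUT3; chr12:100357079-100422059, plus strand) is known in few neurons of the nervous system, often beside another transmitter. It was the only one of the 7 whose highest day was late. Its 3 libraries held 0, 0 and 2 counts on day 0, and no library before day 8 held more than 6. On day 9 they held 16, 4 and 12 counts (0.472, 0.104 and 0.368 CPM), and on day 10 they held 84, 68 and 70 (2.53, 2.07 and 2.11 CPM). All 3 libraries of day 10 thus lay well above all of day 9, the widest gap between neighbouring days for this gene. The level then went from 2.81, 2.89 and 2.29 CPM on day 11 to 4.11, 3.72 and 3.64 on day 13 and 5.37, 4.35 and 5.16 on day 15. Days 13 and 14 overlapped, at 3.83 ± 0.25 and 3.95 ± 0.49 CPM (SD, n = 3), as did days 14 and 15.

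Of the GABA-making enzymes, GAD1 (chr2:170813213-170861151, plus strand) was by far the most abundant of the 7 on day 0, with 1444, 1738 and 1182 counts or 43.7, 53.1 and 36.6 CPM. On day 1 it had 134, 134 and 103 counts, or 4.45, 4.45 and 4.46 CPM, and on day 2 it had 0.862, 0.942 and 1.25 CPM. None of these days overlapped. It was lowest on days 4 to 7, at day means of 0.28 to 0.389 CPM, and stood at 0.507 to 0.694 CPM from day 10 on, with 15 to 38 counts per library. An antisense gene, AC007405.2, overlaps exons of GAD1 and had 48 counts in all on day 0, and 1 to 12 per day from day 2 on. The counting strand is not given in the sources used here, and the 2 genes' reads may not be told apart.

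GAD2 (chr10:26216307-26304558, plus strand) behaved in the opposite order at first. It had no count on day 0, which allows up to 0.0306 CPM, and 0, 1 and 2 counts on day 1. On day 2 it had 13, 9 and 15 counts, on day 4 it had 24, 17 and 40, and on day 5 it had 20, 33 and 30. In CPM, days 4 and 5 were 0.762, 0.769 and 1.28 and then 0.671, 0.975 and 1.18, so these 2 days overlapped. It was still at 0.295, 0.44 and 0.429 CPM on day 9. On day 10 it was at 0.12, 0.0912 and 0.121 CPM, below every library of day 9. The 18 libraries of days 10 to 15 held 1 to 10 counts, with a median of 4.

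SLC32A1 (VIAAT; chr20:38724462-38729372, plus strand) was high on days 0 and 1. Its day 0 libraries were far apart, with 37, 108 and 17 counts, or 1.12, 3.3 and 0.526 CPM, while day 1 had 1.46, 1.63 and 2.12 CPM. On day 0, PAX2, a factor of inhibitory spinal interneurons that is also expressed in other early tissues, had 26, 38 and 19.9 CPM in the same libraries. EVX1, a factor of V0 interneurons and of the posterior streak, had 12.5, 25.8 and 6.28 CPM there. The 3 genes had the same order of libraries on day 0. GAD1 had it too (43.7, 53.1 and 36.6 CPM), while SLC17A7 did not (2.33, 3.21 and 2.6 CPM). How many of all genes share this order was not counted, and its part in the SLC32A1 spread was not tested. SLC32A1 was at 0.298, 0.253 and 0.228 CPM on day 2 and at 0.159, 0.0904 and 0.128 on day 4, then at 0.377, 0.311 and 0.576 on day 7. From day 10 on it held 0 to 7 counts per library, with a median of 2.

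SLC6A5 (GLYT2; chr11:20599400-20659285, plus strand) had no count in any of the 9 libraries of days 0, 1 and 2, as SLC17A6 did. It had 6, 3 and 5 counts on day 4, then 20, 17 and 21 on day 8 (0.597, 0.48 and 0.668 CPM). All 3 values of day 8 lay above all of day 7 (0.346, 0.198 and 0.216 CPM). Day 9, at 0.531, 0.621 and 0.337 CPM, overlapped day 8, and day 10, at 0.181, 0.334 and 0.181 CPM, lay just below day 9. Over the 15 day means of log2 CPM, SLC6A5 and SLC17A6 had the highest correlation of any 2 of the 7 genes (Pearson r = 0.94, n = 15 days). This is a description, since both share the libraries and the days at 0.

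The first day in RA and SAG was the day on which the 2 genes that lead their families on day 0 fell. From day 0 to day 1, GAD1 fell by 3.32 ± 0.18 on the log2 scale (± SE throughout; edgeR's quasi-likelihood test, Benjamini-Hochberg adjusted p = 8.6e-19) and SLC17A7 fell by 4.10 ± 0.34 (adjusted p = 2.6e-13). SLC17A8 was called higher, on 2 counts against 10, a ratio of 5.88 with a 95% exact interval of 1.25 to 55.2 (counting error only; adjusted p = 0.014). That call was lost without day 0 replicate 1 (adjusted p = 0.075) or replicate 2 (adjusted p = 0.073). GAD2 was called higher as well on 0 against 3 counts, too few for a fold, and the call was lost without any 1 of 5 of the 6 libraries (adjusted p = 0.068 to 0.23). SLC32A1 was not called (0.07 ± 0.38, adjusted p = 0.9), but leaving out day 0 replicate 2 gave a rise of 1.07 with an adjusted p of 0.017. In all, 4 of the 7 were called, where 61.7% of all genes were, 2 of them higher and 2 lower, where 30.1% and 31.7% were. In a fit of only these days, 2 of the 7 were called. SLC17A6 and SLC6A5 had no counts on either day.

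By day 4 the neuronal genes had begun to rise and SLC17A6 and SLC6A5 were counted for the first time. From day 1 to day 4, SLC17A6 went from 0 to 22 counts over 3 libraries, at least 7.21-fold higher (pooled counts over summed library sizes, against a floor of 3 counts over the 3 libraries of day 1; adjusted p = 0.00011). SLC6A5 went from 0 to 14 counts, at least 4.59-fold higher on the same pooled scale and against the same floor (adjusted p = 0.00038). GAD2 went from 3 to 81 counts, a ratio of 26.5 with a 95% interval of 8.77 to 131 (adjusted p = 3.5e-08). GAD1 fell by 3.94 ± 0.28 (adjusted p = 4.9e-15) and SLC32A1 fell by 3.71 ± 0.52 (adjusted p = 1.7e-07). The 2 GABA enzymes thus moved in opposite directions over the same days. SLC17A7 (0.10 ± 0.48, adjusted p = 0.92) and SLC17A8 (-1.28 ± 0.70, adjusted p = 0.16) were not called. In all, 5 of 7 were called, where 47.2% of all genes were, 3 of them higher and 2 lower, where 24.4% and 22.8% were. In a fit of only the 6 libraries compared, 3 of 7 were called. Of the 14 neuronal genes, 13 were called higher, led by STMN2, which went from 6.33 to 193 CPM. STMN2 had been higher still on day 0, at 259, 254 and 236 CPM, so its rise from day 1 was not a first appearance.

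From day 4 to day 8, 6 of the 7 were called, where 53.2% of all genes were, 5 of them higher and 1 lower, where 27.1% and 26.0% were. SLC17A7 rose by 2.16 ± 0.37 (adjusted p = 4.9e-06), SLC17A8 by 2.12 ± 0.60 (adjusted p = 0.0031), SLC6A5 by 1.80 ± 0.48 (adjusted p = 0.0018), SLC17A6 by 1.53 ± 0.47 (adjusted p = 0.0067) and GAD1 by 0.98 ± 0.37 (adjusted p = 0.023). GAD2 fell by 1.01 ± 0.38 (adjusted p = 0.024), and SLC32A1 was not called (1.14 ± 0.62, adjusted p = 0.12). The median log2 change was 1.53 over the 7 genes and 0 over all genes tested. All 3 glutamate transporters and GLYT2 rose over these days, and so did all 14 neuronal genes. Several of these calls rest on single libraries of few counts. SLC17A6 was not called without day 4 replicate 1, its library of 2 counts (1.04, adjusted p = 0.071), GAD1 not without day 4 replicate 1 (0.58, adjusted p = 0.21), day 4 replicate 3 (adjusted p = 0.079) or day 8 replicate 2 (adjusted p = 0.067). GAD2 was not called without day 4 replicate 3 (-0.70, adjusted p = 0.18), day 8 replicate 2 (adjusted p = 0.063) or day 8 replicate 3 (adjusted p = 0.11). SLC17A8 was not called when replicate 1 of every day was left out (1.81, adjusted p = 0.063).

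In the second week SLC17A8 parted from the other genes. From day 8 to day 14 it rose by 4.15 ± 0.29 (adjusted p = 8.4e-15), and from day 8 to day 15 by 4.48 ± 0.29 (adjusted p = 5e-16). From day 8 to day 14, SLC17A6 fell by 2.02 ± 0.47 (adjusted p = 0.00061), SLC32A1 by 2.45 ± 0.68 (adjusted p = 0.003), GAD2 by 1.78 ± 0.46 (adjusted p = 0.0017) and SLC6A5 by 1.58 ± 0.44 (adjusted p = 0.0035). Thus 5 of 7 were called by day 14, where 43.3% of all genes were, 1 of them higher and 4 lower, where 21.6% and 21.6% were. The comparison of day 15 with day 8 shares the day 8 libraries and called 6 of 7, where 50.7% of all genes were, 1 of them higher and 5 lower, where 24.9% and 25.8% were. In it SLC17A6 fell by 2.48 ± 0.50 (adjusted p = 8.3e-05), SLC32A1 by 2.16 ± 0.66 (adjusted p = 0.006), GAD2 by 1.54 ± 0.45 (adjusted p = 0.0045) and SLC6A5 by 1.42 ± 0.43 (adjusted p = 0.0065). GAD1 was called in neither (0.06 ± 0.30 on day 14, adjusted p = 0.89; 0.23 ± 0.29 on day 15, adjusted p = 0.54). SLC17A7 was not called on day 14 (-0.29 ± 0.29, adjusted p = 0.45) and was called lower on day 15 (-0.89 ± 0.30, adjusted p = 0.014), a call lost without day 15 replicate 2 (adjusted p = 0.079). SLC6A5 on day 15 was lost without day 15 replicate 3 (-1.12, adjusted p = 0.055). When a replicate number was left out of every day, SLC32A1 was lost on day 14 without replicate 1 (adjusted p = 0.073) and on day 15 without replicate 3 (adjusted p = 0.063), SLC6A5 on both days without replicate 3 (adjusted p = 0.083 and 0.1) and GAD2 on day 15 without replicate 1 (adjusted p = 0.16).

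**Figure D2:**
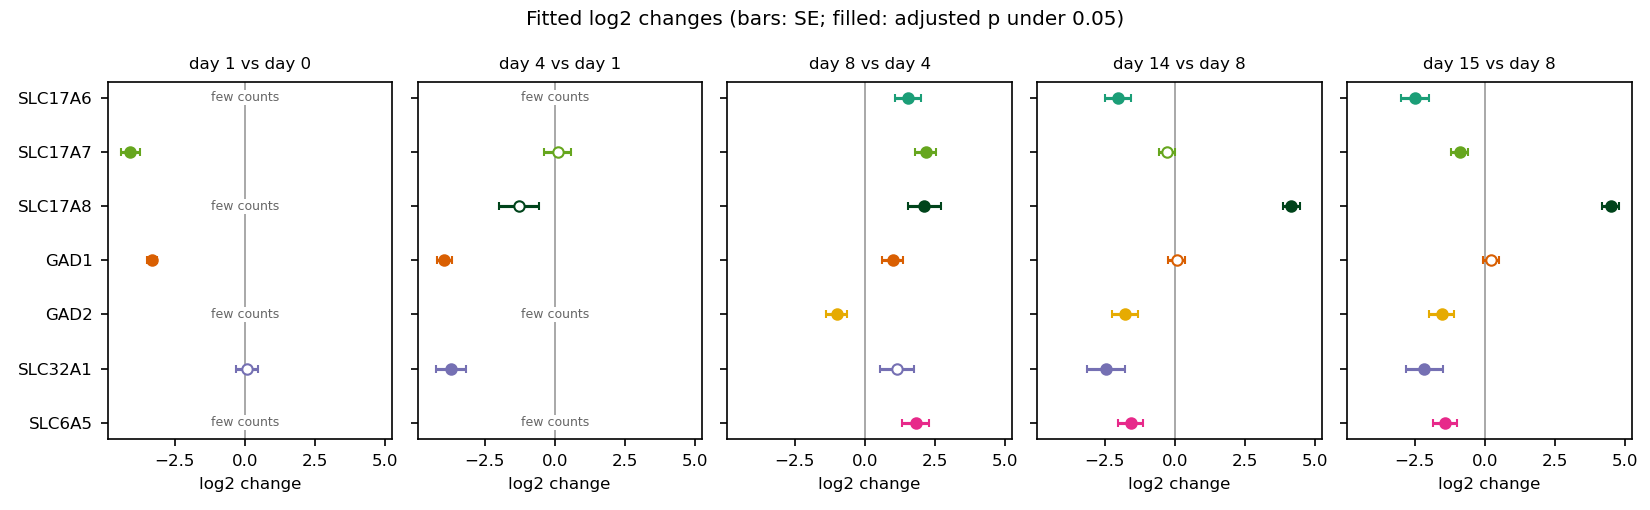
Fitted log2 change (horizontal axis) of each of the 7 genes (vertical axis) in 5 comparisons of days, with bars of 1 SE. Filled points have an adjusted p under 0.05 and open points do not, and "few counts" marks a comparison with a day of 3 or fewer counts. GAD1 and SLC17A7 lie far to the left on day 1, 6 genes lie to the right on day 8 (5 of them filled), and on days 14 and 15 only SLC17A8 lies far to the right (4.15 and 4.48).

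Part of the changes of the second week fell at the step from day 9 to day 10, while SLC32A1 and SLC17A7 separated a day earlier. From day 9 to day 10, the 3 libraries of one day lay entirely apart from the 3 of the other for 4 of the 7 genes, where 39.3% of all genes did, a share not far from that of the 7. SLC17A8 was higher, and SLC17A6, GAD2 and SLC6A5 were lower. Neuronal genes moved with this step: the summed neuronal genes were 9120 to 9910 CPM per library on day 9 and 6030 to 8370 on day 10. Their part in the lower SLC17A6, GAD2 and SLC6A5 was not tested. At the earlier steps, 3 of the 7 separated from day 0 to day 1 (67.8% of all genes), 4 from day 1 to day 2 (43.7%), 5 from day 2 to day 4 (47.4%) and 2 from day 4 to day 5 (24.6%). The 5 between day 2 and day 4 were SLC17A6, GAD2 and SLC6A5, higher, and GAD1 and SLC32A1, lower. From day 5 to day 6 there was 1, SLC32A1, higher (27.0% of all genes), and from day 6 to day 7 there was none (24.8%). From day 7 to day 8, 3 were higher, SLC17A7, GAD1 and SLC6A5 (31.7%), and from day 8 to day 9, 3 were lower, SLC17A7, GAD1 and SLC32A1 (40.6%). From day 10 to day 11 none of the 7 separated, where 18.1% of all genes did. The later steps held 1 (day 12, 16.9%), 2 (day 13, 19.6%), 1 (day 14, 14.5%) and 1 (day 15, 18.9%).

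Within the last days, SLC17A8 was called in both comparisons made among days of the same parity. It rose by 0.82 ± 0.21 from day 10 to day 14 (adjusted p = 0.0028) and by 0.89 ± 0.21 from day 11 to day 15 (adjusted p = 0.0012). From day 10 to day 14, 2 of 7 were called, where 32.8% of all genes were, both higher and none lower, where 15.6% and 17.2% were. The other was SLC17A7 (0.84 ± 0.32, adjusted p = 0.039), which was lost without day 10 replicate 1 (0.54, adjusted p = 0.24) and without each of the 3 libraries of day 14 (adjusted p = 0.068, 0.088 and 0.062). The SLC17A8 call on day 14 was lost when replicate 3 of every day was left out (0.68, adjusted p = 0.068). From day 11 to day 15, 1 of 7 was called, where 27.9% of all genes were, and it was higher, where 12.9% were higher and 14.9% lower. Odd and even days were compared because the medium was replaced every other day. Over days 10 to 15, none of the 7 was called by edgeR between odd and even days, where 15.5% of all genes were (5.69% higher and 9.77% lower on odd days). At an unadjusted edgeR p under 0.05 there was 1, SLC17A8. It was 0.32 ± 0.12 higher on odd days (edgeR's Benjamini-Hochberg adjusted p = 0.069). DESeq2 called that 1 gene (adjusted p = 0.02). Since odd days are also later on average by 1 day, this difference and the rise with time cannot be told apart.

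Levels of different genes are compared per length, in the authors' TPM. On day 0 the GAD genes summed to 34.2 ± 7.0 TPM (SD, n = 3 throughout), and all of it was GAD1. The sum was 3.9 ± 0.74 TPM on day 1, 0.937 ± 0.4 on day 8 and 0.733 ± 0.34 on day 15. The 3 glutamate transporters summed to 1.61 ± 0.12 TPM on day 0, 0.21 ± 0.036 on day 1, 0.937 ± 0.1 on day 8 and 3.29 ± 0.55 on day 15. On day 0 every library held more GAD than glutamate transporter TPM, and on day 15 every library held less: 0.38 to 1.06 TPM of GAD against 2.76 to 3.85 TPM. On day 8 the 2 sums had the same mean and overlapped. SLC32A1, without which GABA is not loaded into vesicles, was at 1.04 ± 0.91 TPM on day 0, 0.207 ± 0.038 on day 8 and 0.05 ± 0.017 on day 15. The acetylcholine genes CHAT, the synthetic enzyme, and SLC18A3, its vesicular transporter, summed to 0.03 ± 0.026 TPM on day 0, 25.3 ± 2.1 on day 8 and 38.7 ± 5.7 on day 15. All 7 genes together summed to 2.29 ± 0.38 TPM on day 8 and 4.21 ± 0.44 on day 15.

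**Figure D3:**
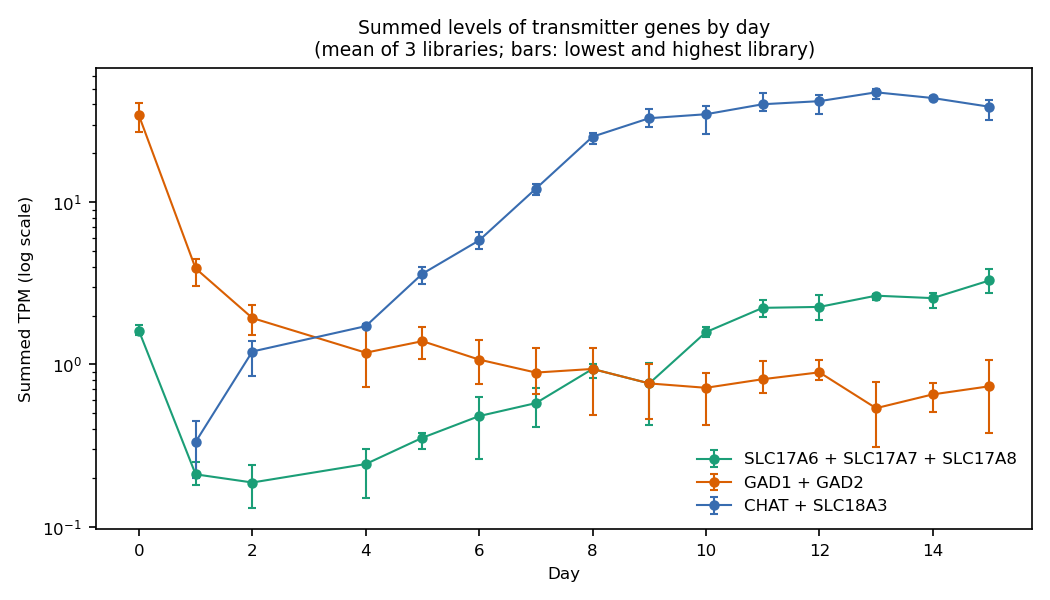
Summed TPM (vertical axis, log scale) of the 3 vesicular glutamate transporters, the 2 GAD genes and the pair CHAT and SLC18A3 against day. Points are means of 3 libraries and bars run from the lowest to the highest library; the pair is not drawn on day 0, where 1 library is at 0. The GAD sum starts highest (34.2), the acetylcholine pair is highest from day 4 on, and the glutamate transporters lie above the GAD genes from day 10 on.

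Within the glutamate family the leading gene changed over the course. SLC17A7 gave 97.8% ± 3.8 of the family's TPM on day 0. SLC17A6 gave 56.2% ± 19 on day 5, 59.3% ± 7.0 on day 7 and 36.8% ± 3.0 on day 8, when SLC17A7 gave 49.0% ± 1.5. SLC17A8 gave 14.2% ± 1.7 on day 8, 77.6% ± 7.1 on day 10 and 88.3% ± 2.1 on day 15. The rise of the family sum after day 9 was therefore a rise of VGLUT3, not of VGLUT2, whose share was 3.66% ± 1.8 on day 15. In the GAD pair, GAD2 gave none of the TPM on day 0, 66.4% ± 3.1 on day 5, 28.7% ± 4.4 on day 8 and 29.7% ± 7.4 on day 15. From day 4 on these shares rest on at most 40 counts per library for each gene other than SLC17A8. SLC17A8 itself held few counts up to day 9, with 8, 11 and 3 on day 8 and 16, 4 and 12 on day 9. It passed 40 counts per library only from day 10 on (84, 68 and 70).

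**Figure D4:**
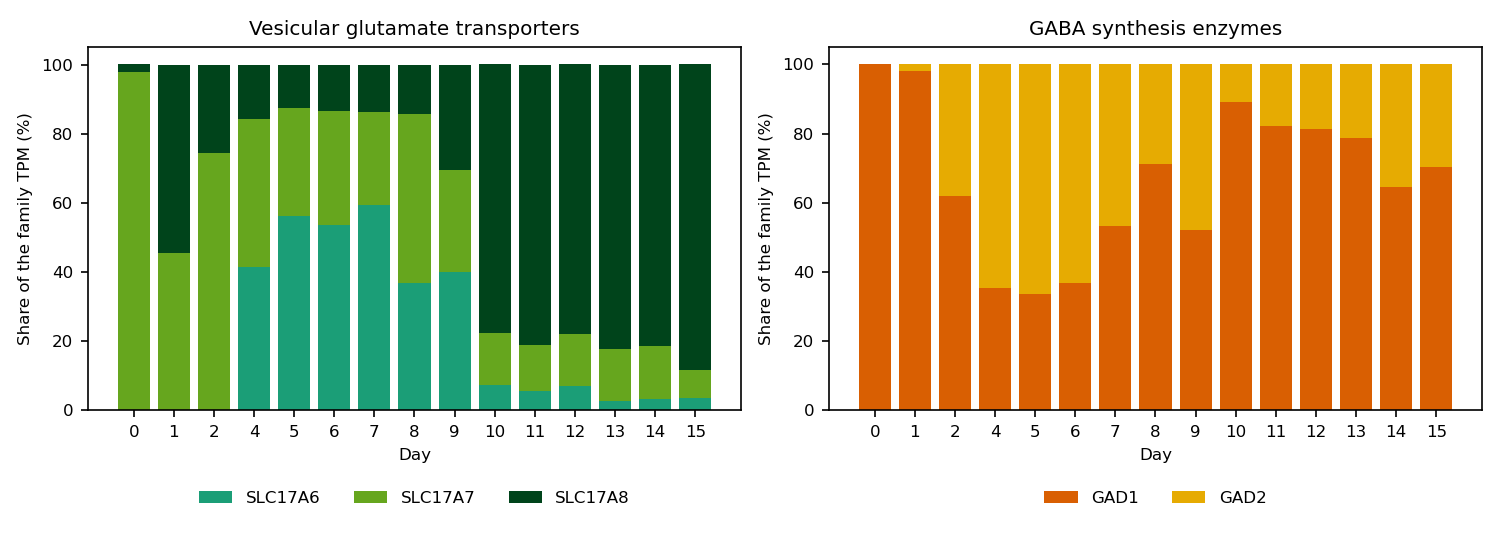
Share of the family's summed TPM (vertical axes, %, mean of 3 libraries) given by each gene on each day (horizontal axes), for the vesicular glutamate transporters (left) and the GAD genes (right). SLC17A7 fills the left bar of day 0 (97.8%), SLC17A6 is largest on days 5 to 7 and on day 9, and SLC17A8 is largest from day 10 on (88.3% on day 15). GAD2 exceeds GAD1 on days 4, 5 and 6 only.

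Of the other genes of these pathways, those that take up and break down GABA were far higher late than the genes that make it. ABAT, the GABA transaminase, was at 6.7 ± 0.19 TPM on day 0, 136 ± 3.1 on day 8 and 252 ± 25 on day 15. ALDH5A1, the next enzyme of the GABA shunt, was at 5.64 ± 0.95 TPM on day 0 and 32.2 ± 4.0 on day 15. Of the 6 listed genes of this group 5 were tested. From day 4 to day 8, 4 were called higher and none lower, where 27.1% and 26.0% of all genes were, with a median log2 change of 1.38 where all genes had 0, and ABAT rose by 2.56 ± 0.06 in CPM (edgeR adjusted p = 9.8e-30). From day 8 to day 15, 3 were higher and none lower, where 24.9% and 25.8% of all genes were. They included ALDH5A1 (0.85 ± 0.07, adjusted p = 3.2e-13) and ABAT (0.80 ± 0.05, adjusted p = 1.7e-15).

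Of 14 genes of glutamate supply and uptake, 6 rose and 3 fell from day 4 to day 8, and 3 rose and 7 fell from day 8 to day 15, with medians of 0.08 and -0.14. All genes were called higher and lower in 27.1% and 26.0% in the first and in 24.9% and 25.8% in the second, so the 3 of 14 that fell first and the 3 that rose later lie near those shares. SLC1A2, a glutamate uptake transporter of astrocytes and radial glia, rose by 2.46 ± 0.10 by day 8 (edgeR adjusted p = 3.8e-21). SLC1A3, another such transporter, rose by 2.17 ± 0.14 from day 8 to day 15 (adjusted p = 1.1e-14), from 40.6 to 183 CPM. GLUL, which turns glutamate into glutamine, fell by 0.55 ± 0.05 over the same days (adjusted p = 6.7e-12). Of 7 genes that take up, make or cleave glycine, none rose and 6 fell from day 4 to day 8 (against the same shares), led by SHMT1, an enzyme that makes glycine from serine (-0.86 ± 0.07, adjusted p = 8.2e-13). From day 8 to day 15, 1 rose and 3 fell. The 1 was the other glycine transporter, SLC6A9 (GLYT1), which rose by 0.55 ± 0.08 (adjusted p = 3.6e-07) while the neuronal SLC6A5 fell.

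Factors that mark the interneurons using these transmitters were read beside them. Of 15 factors of inhibitory spinal neurons 12 were tested, and from day 1 to day 4, 10 rose and 1 fell, where 24.4% and 22.8% of all genes did, with a median of 2.07. EN1, a factor of inhibitory V1 neurons, went from 0.0111 to 1.41 CPM and GATA2, of V2 neurons, from 0.194 to 3.18 CPM (adjusted p = 6.1e-11). From day 8 to day 15, 3 of the 12 rose and 5 fell, where 24.9% and 25.8% of all genes did, so those that rose were at the share of all genes. The summed list was at 18.3 to 20 CPM per library on day 8 and 18.0 to 19.8 on day 15. GATA2 rose by 1.00 ± 0.26 (edgeR adjusted p = 0.0014) and LHX1, a factor of several inhibitory types, by 0.86 ± 0.15 (adjusted p = 7.8e-06). TAL1, a factor of inhibitory V2b neurons, fell by 2.33 ± 0.37 (adjusted p = 1.2e-06). Of 13 excitatory factors 7 were tested. From day 8 to day 15, 3 of these rose and 2 fell, where all genes had the same 24.9% and 25.8%. Those that rose included LMX1B (0.0923 to 2.0 CPM) and SIM1, a V3 factor (0.0809 to 1.09 CPM). Of 6 forebrain GABA neuron factors 4 were tested and 3 rose from day 8 to day 15, where 24.9% of all genes did. Lists of other cell types also moved. The 8 astrocyte and radial glia genes summed to 373 to 414 CPM on day 8 and 583 to 616 on day 15, with 4 called higher and 1 lower (24.9% and 25.8% of all genes) and none of the 8 at 0. The same list had summed to 519 to 573 CPM on day 0, so its late level was not particular to the late days. The 4 included SLC1A3 (40.6 to 183 CPM) and AQP4, which reached only 0.625 CPM. The 1 called lower was GFAP, from 0.231 to 0.0519 CPM, and ALDH1L1 was not called (0.716 CPM on day 15). The part of these other cell types in the late levels of the 7 genes was not tested.

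For the 4 genes that reached 1 CPM, the 3 protein-coding genes of most similar course were taken by Pearson correlation of day means of log2 CPM over 15 days, among 11282 candidates that reached 10 CPM. They were PICK1, a PDZ-domain protein (r = 0.989), DKK2, a secreted Wnt modulator (0.986), and CCDC80 (0.984) for SLC17A8. Such a correlation does not weigh the size of a change. PICK1 was at 10.6 CPM on day 0, 12.5 on day 8 and 19.7 on day 15. DKK2 was at 0.163 CPM on day 0, 0.463 on day 8 and 15.0 on day 15. The genes of most similar course included TBXT, the T-box factor of the streak and tail bud (0.978), and NLRP2 (0.974) for GAD1. TBXT was at 23.7 CPM on day 0, 0.964 on day 1 and 0 on days 8 and 15. They were MINK1 (0.948), FAM149B1 (0.948) and STX16 (0.946) for SLC17A7, and RPL11 (0.932), GCNT2 (0.931) and RPL34 (0.919) for SLC32A1. RPL11 and RPL34 are ribosomal proteins. All these genes come from the same libraries as the genes they are set beside.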

How the data were processed

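The authors deposited 2 tables over the same 45 libraries: expected counts per gene from RSEM, and abundances that sum to 1e6 per library, read here as TPM. The submitters' processing notes name RSEM, with no version, bcl2fastq 2.20.0 and genome build GRCh38. Which aligner, which annotation release and which strand setting were used is not given in the sources used here. Expected counts of ambiguous reads are shared out by a model, and 92.5% of values were whole. They were rounded to whole counts. Gene identifiers were matched to GENCODE 29 (57895 of 58233; the other 338 held 0.0276% of counts). Libraries were grouped by the day in their labels. One edgeR quasi-likelihood fit (edgeR 4.0.16, R 4.3.3) covered all 45 libraries with day as the factor, TMM scaling (factors 0.9247 to 1.061) and filterByExpr, leaving 19436 genes and 30 residual degrees of freedom. p-values were adjusted by Benjamini-Hochberg over all genes tested, with a call at 0.05. SE is the absolute log2 change divided by the square root of F. An exact permutation test of 3 against 3 cannot go below p = 0.1 and was not used. The steps were tested on simulated data. No 2 libraries of a day agreed within sampling noise (chi-square per degree of freedom 2.1 to 27.6 over 45 pairs). The mitochondrial share of counts was 1.795% to 5.287%.

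The genes named are the 7, the called genes of largest change in lists of pathway and cell type genes (up to 4 a list and comparison), and the 3 genes of most similar course; some genes that this rule names are not reported here. The 7 genes and the lists were chosen with earlier results of these data known. DESeq2 1.42.0 and limma 3.58.1 on log2(TPM + pseudocount) were among the alternatives, and single libraries were left out as an alternative added after seeing the data. No protein sequences were used here.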

Additional observations from a re-analysis of the deposited data

How the results depend on the processing

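Among values of a single gene in a comparison under an alternative, 882 kept their side of the threshold. A further 77 lost the call and 6 gained one. None that was called in either fit changed direction, and changes of direction among values called in neither were not counted. limma on log2(TPM + 1) or log2(TPM + 0.1), which tests only 4 of the 7 genes (TPM of at least 1 in 3 libraries), called fewer of the 7: 4 and 4 over all days, 2 and 2 for day 1 against day 0, 2 and 2 for day 4 against day 1, 1 and 1 for day 8 against day 4, 1 and 2 for day 14 and for day 15 against day 8, 1 and 0 for day 14 against day 10, 0 with 0.1 for day 15 against day 11, and 1 with 1 between odd and even days. Without that filter, log2(TPM + 1) called 2, 3, 3, 2, 2 and 1 of the 7 in the first 6 of these comparisons of days and 1 between odd and even days. With only the days compared in the fit, 2, 3 and 1 of the 7 were called on day 1 against day 0, day 4 against day 1 and day 14 against day 10, and 1 between odd and even days. For day 14 against day 10, DESeq2 and the fit with no filter on low counts each called 1, and DESeq2 called 1 between odd and even days. Where the threshold was missed, the cause was not tested, beyond the smaller number of libraries or genes these fits hold.

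Leaving out replicates, 7 of the 7 were called over all days, 2 to 4 for day 1 against day 0, 5 for day 4 against day 1, 3 to 6 for day 8 against day 4, 4 to 5 for day 14 and 4 to 6 for day 15 against day 8, 0 to 2 for day 14 against day 10, 1 for day 15 against day 11, and 0 between odd and even days. Over all genes, 6379 were called for day 14 against day 10 (4186 with only those days, 3339 to 6267 with replicates left out), 5415 for day 15 against day 11 (3099, and 2930 to 4925) and 3004 between odd and even days (1620, and 962 to 3357, and 1920, 1701 and 1526 by the 3 limma fits). A replicate block called 7 of the 7 over all days and 4, 5, 6, 5, 6, 2, 1 and 0 in the comparisons in the order above, as without it. The replicate numbers do not pair the samples: libraries of the same number had a mean correlation of 0.002 in their deviations from the day means (315 pairs, 13 over 0.1), and those of different numbers -0.001 (630 pairs). Depth limits 6 of the 7 genes late in the course, when no library of days 10 to 15 holds more than 38 counts of any of them.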
